A study of Mus musculus with 12 samples.

Results

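The nuclear genes of oxidative phosphorylation were followed here in regulatory T cells (Tregs), the Foxp3-expressing CD4 T cells that restrain immune responses. The members were all gene symbols that begin with Ndufa, Ndufb, Ndufc, Ndufs or Ndufv and a digit, with Uqcr, with Cox4 to Cox8 or with Atp5, together with Sdha, Sdhb, Sdhc and Sdhd. The rule used names alone and no measured values, although it was set with earlier results of these data known. The rule found 84 of the 23352 symbols in the files, and 78 of these 84 were among the 11431 genes that reached an FPKM (fragments per kilobase of transcript, scaled to the mapped reads of the library) of 1 or more in 2 or more libraries. The 6 others, Cox4i2, Cox6a2, Cox7b2, Cox8b, Cox8c and Ndufa4l2, lay below that level.

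The cells were sorted from spleen and lymph node tissue of C57BL/6 females whose age is not given in the labels, and RNA was read after poly(A) selection. HET mice were Foxp3YFP-Cre/Foxp3WT;Ezh2fl/+ and KO mice carried Ezh2fl/fl with the same Foxp3 alleles, and from each genotype a CD62Lhi and a CD62Llo fraction was sequenced. Ezh2 is the histone H3 lysine methyltransferase of Polycomb repressive complex PRC2, and CD62L is the lymph node homing receptor that resting T cells carry and activated cells shed. All 4 groups carried 1 Cre allele on the X-linked Foxp3 gene beside 1 wild-type allele, so that in such females X inactivation leaves Cre in only some Tregs, and the labels do not say whether cells were gated on YFP. No group without Cre or without a floxed allele was analysed here. Each group had 3 libraries, except HET CD62Lhi with 2, because its replicate 3, set aside by the submitters for low read counts, had 589 of 23846 entries above 0. Whether replicates were separate mice is not stated, so p-values may measure technical spread.

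Oxidative phosphorylation takes place in the inner mitochondrial membrane. Complex I (NADH dehydrogenase, Nduf genes) and complex II (succinate dehydrogenase, Sdh genes) pass electrons to ubiquinone, complex III (Uqcr genes) passes them to cytochrome c, and complex IV (Cox genes) passes them to oxygen. Complex V, the ATP synthase, uses the resulting proton gradient to make ATP. Some further subunits are encoded by mitochondrial DNA and were not analysed here. Tregs are known to depend on mitochondrial respiration, and nuclear respiratory factor 1 (NRF1), GA-binding protein of the ETS family and YY1 are known activators of the nuclear genes.

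The promoters bear on whether the members share control sequences that the name rule did not use. RefSeq windows on mm10 (GRCm38.p6), from 250 bases before to 50 bases after each annotated start, matched 66 of the 84 members by symbol in 71 windows. Exact letters, settled on after counts for a longer NRF1 form had been seen, were sought on both strands: CGCATGCG for the core of the NRF1 site, CCGGAAG for ETS factors and AAGATGGC for YY1, of which the last 2 can overlap by the letters AAG. The NRF1 letters stood in 9 of the 71 windows (12.7%), against 4.11% of the 10630 windows of tested genes and 1.87% of all 32851 windows. The YY1 letters stood in 9 windows (12.7%), against 4.75% and 2.75%, and the ETS letters in 16 (22.5%), against 18.7% and 8.86%. Any of the 3 was found in 28 windows (39.4%), against 25.4% and 12.6%. These shares are a description without a test, and a match is not evidence of binding. Of the 7 members called between fractions below, 5 had a window and none of these held any of the 3. The 250 bases before an annotated start of 4 members are shown because they carry the 3 kinds of match, with the matched letters in capitals, or because the gene changed between fractions in both genotypes without any match, as Cox7a2l did. Atp5j has a second window (chr16:84835576-84835875), which holds none of the 3. The counted window of Atp5k also holds 1 ETS match, which does not lie wholly within the 250 bases shown. Each stretch shown is written 5′ to 3′ on the gene's own strand, the minus strand in all 4.
Cox6a1 (chr5:115348959-115349208, NRF1 and, on the other strand, ETS): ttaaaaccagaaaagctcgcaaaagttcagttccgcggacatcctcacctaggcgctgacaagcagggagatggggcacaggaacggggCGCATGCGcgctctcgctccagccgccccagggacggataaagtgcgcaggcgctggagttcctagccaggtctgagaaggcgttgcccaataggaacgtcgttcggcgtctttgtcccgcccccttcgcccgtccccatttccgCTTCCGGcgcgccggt
Atp5k (chr5:108434400-108434649, NRF1): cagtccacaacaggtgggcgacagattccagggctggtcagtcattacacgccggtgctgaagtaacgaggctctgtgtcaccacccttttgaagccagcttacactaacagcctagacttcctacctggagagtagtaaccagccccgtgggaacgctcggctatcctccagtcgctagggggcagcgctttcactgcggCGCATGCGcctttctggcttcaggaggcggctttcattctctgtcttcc
Atp5j (chr16:84834977-84835226, NRF1, YY1 and ETS in that order): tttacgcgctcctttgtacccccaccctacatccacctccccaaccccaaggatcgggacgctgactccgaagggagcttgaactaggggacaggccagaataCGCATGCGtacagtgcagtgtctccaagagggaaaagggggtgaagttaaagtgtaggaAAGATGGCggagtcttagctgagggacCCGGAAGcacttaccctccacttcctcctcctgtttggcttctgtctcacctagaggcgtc
Cox7a2l (chr17:83514334-83514583, no match): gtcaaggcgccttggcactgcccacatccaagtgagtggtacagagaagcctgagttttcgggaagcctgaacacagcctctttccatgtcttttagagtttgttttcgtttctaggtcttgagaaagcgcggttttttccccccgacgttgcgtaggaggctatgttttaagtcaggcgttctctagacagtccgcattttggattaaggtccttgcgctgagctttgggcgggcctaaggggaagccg

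The members were strongly expressed in every group. Summed over the 84 members, FPKM came to 1.72% and 1.76% of all FPKM in the HET CD62Lhi libraries and to 1.91% to 1.94% in HET CD62Llo. The shares were 1.69% to 1.73% in KO CD62Lhi and 1.75% to 1.93% in KO CD62Llo. The CD62Llo libraries lay above the CD62Lhi libraries of their own genotype in both genotypes, while the total of all FPKM was lower there, at 569609 to 608404 against 625384 to 648694. The members' own summed FPKM overlapped between the fractions, from 10679 to 11395 in CD62Lhi and from 10395 to 11760 in CD62Llo.

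Whole-series checks were as follows. Between 10645 and 11082 entries reached an FPKM of 1 in the 11 libraries. Ezh2 ranged from 12.5 to 12.7 FPKM in HET CD62Lhi, 17.8 to 20.5 in HET CD62Llo, 9.15 to 11.5 among KO CD62Lhi libraries and 12.5 to 16.8 among KO CD62Llo libraries, and KO against HET did not pass in either fraction (adjusted p = 1 and 0.113, limma with Benjamini-Hochberg). A whole-gene FPKM cannot show the floxed part alone, so the genotype is checked only in part. Foxp3 had means of 84.2 to 91.8 FPKM in the 4 groups, while 4 of the 6 Treg markers it belongs to rose in CD62Llo in both genotypes (list medians 0.45 and 0.30 on the log2 scale). Summed FPKM of those 6 was 721 to 797 in HET CD62Lhi and 1005 to 1136 in HET CD62Llo, and 723 to 756 and 879 to 989 in KO. Summed FPKM of 5 B cell markers was 71.4 to 122 in CD62Lhi and 17.8 to 58.2 in CD62Llo, and that of Cd8a and Cd8b1 was 28.7 to 42.2 and 10.7 to 17.2. Summed FPKM of 6 myeloid markers was 78.9 to 96.6 in CD62Lhi and 106 to 330 in CD62Llo, with Itgam, S100a8 and S100a9 at means under 1. Since these markers moved with the fraction, their part in the fraction results below was not tested, and in bulk RNA fewer cells of a type and less RNA per cell cannot be told apart.

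Levels differed far more between members than between groups. Complex I, which has the most members, ran from a mean of 13.5 FPKM over the 11 libraries for Ndufa11 to 336 for Ndufa3, with a median of 73.4 over its 35 members. The 4 complex II genes lay together, from 46.9 for Sdhc, a membrane anchor, to 84.1 for Sdha, the flavoprotein. Complex III ran from 43.9 for Uqcrfs1, the Rieske iron-sulfur protein, to 432 for Uqcrh, the hinge protein. The 14 tested complex IV members had a median of 236 and a highest value of 386 for Cox4i1. Complex V had the highest median, 243, and its 15 members ran from 102 for Atp5f1 to 488 for Atp5k, a small membrane subunit.

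These levels are per kilobase, yet the scale is uncertain for short genes. The authors deposited an interval with each FPKM, and in each library the FPKM of 61 to 65 members exceeded the top of that interval. The ratio of FPKM to the midpoint of that interval ranged from 0.993 to 3.05 over the 75 members with a mean FPKM of at least 10, highest for Atp5k. Within a member it varied by at most 5.45% between libraries. In the fraction comparisons below, interval midpoints left the log2 changes of Cox7a2l at -0.45 in HET and -0.27 in KO. They could hardly alter these, since the FPKM of Cox7a2l was 0.988 to 0.998 of its midpoint in the 11 libraries. Small changes could turn: members above and below 0 went from 39 and 39 to 37 and 41 in HET. In KO they went from 51 and 27 to 56 and 22. The order of genes was affected as well. By interval midpoints Atp5k stood at 160 and not 488, Atp5b, the catalytic beta subunit, was highest in complex V at 311, and Cox7a2l was highest in complex IV at 322.

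**Figure D1:**
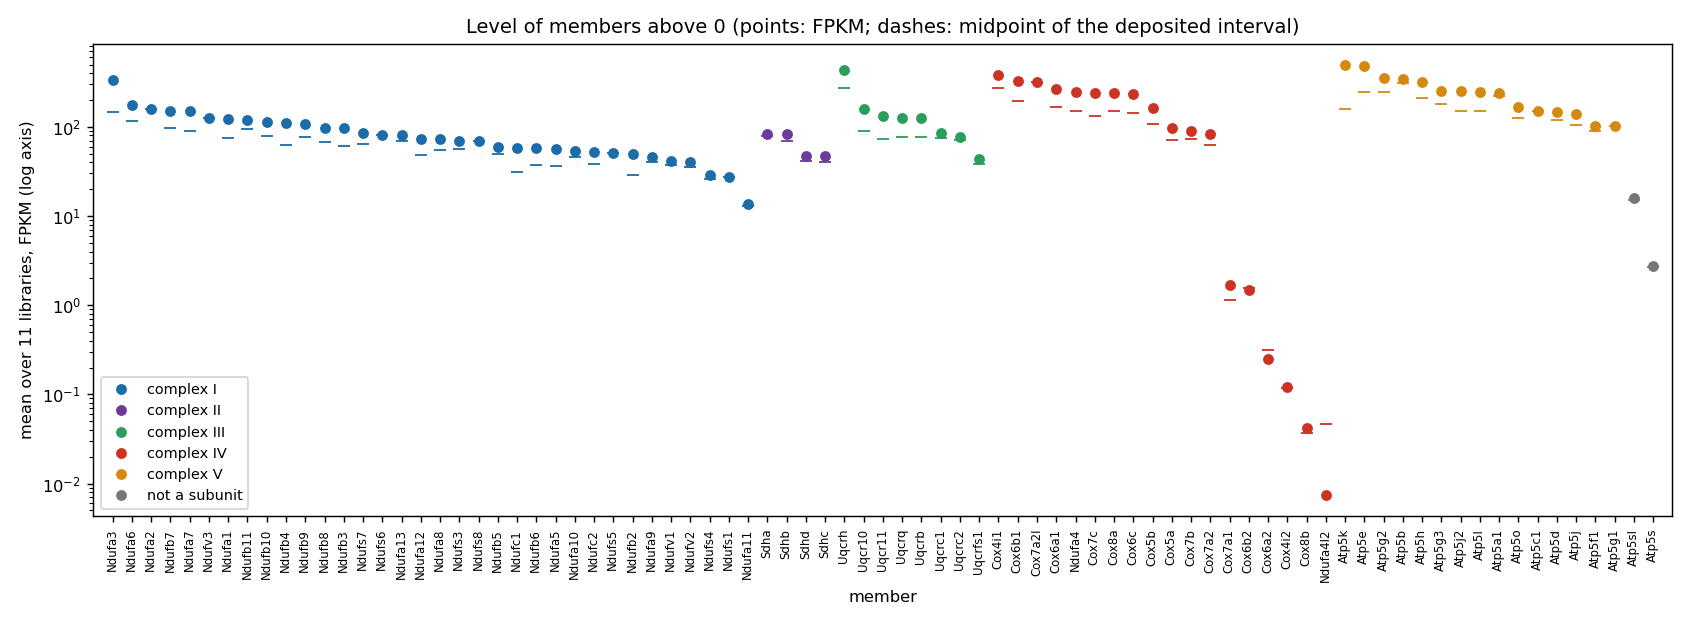
Mean level over the 11 libraries of 81 of the 82 members above 0, by complex, on a log axis in FPKM. Points are FPKM and dashes the midpoint of the deposited interval, which lies well below the FPKM for short genes such as Atp5k (488 and 160), and 6 members of complex IV stand below an FPKM of 2.

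Tissue-specific isoforms were near the floor. Cox4i1, the general form of the subunit that binds ATP in complex IV, had FPKM of 413 and 413 in HET CD62Lhi, 414, 363 and 362 in HET CD62Llo, 392, 392 and 382 among KO CD62Lhi libraries and 354, 401 and 361 among KO CD62Llo libraries. Its lung form Cox4i2 stayed between 0.0357 and 0.356 FPKM in all 11 libraries. Cox6a1 ranged from 229 to 290 and its heart and muscle form Cox6a2 from 0 to 0.843. Cox7a2, the liver-type form, ranged from 75.9 to 91.3, and its muscle form Cox7a1 from 0.574 to 3.02. The general forms thus made up nearly all of each pair in every group, for example 97.0% ± 0.406 to 98.7% ± 0.614 (SD, n = 3 each) for Cox7a2 against Cox7a1 in HET CD62Llo and KO CD62Lhi. Ndufa4, a complex IV subunit despite its name, ranged from 222 to 281, while its hypoxia-induced relative Ndufa4l2 was listed at 0 in 10 libraries and at 0.0823 in the third HET CD62Llo library. Cox7b2 and Cox8c were listed at 0 in all 11 libraries.

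Atp5g1, Atp5g2 and Atp5g3 encode the same mature ring subunit of the ATP synthase with different import sequences. Atp5g2 had FPKM of 362 and 352 in HET CD62Lhi, 384, 345 and 336 in HET CD62Llo, 336, 362 and 327 among KO CD62Lhi libraries and 335, 379 and 326 among KO CD62Llo libraries. It supplied 48.9% to 50.2% of their summed FPKM as a group mean, Atp5g3 34.5% to 36.9% and Atp5g1 14.1% to 15.3%. The order Atp5g2, Atp5g3, Atp5g1 held in each of the 4 groups.

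The question of the first comparison is whether HET CD62Llo Tregs, the activated fraction, differ from HET CD62Lhi Tregs in these genes. Few members did: 2 rose, Uqcrb and Ndufa12, and 2 fell, Cox7a2l and Ndufa6, of 78 tested (called at an adjusted p below 0.05 in limma, Benjamini-Hochberg over all genes). That is 5.13% of members, where 27.7% of all tested genes passed (18.8% higher and 8.88% lower). The median log2 change, on the scale of log2(FPKM + 1) used throughout, was 0.00, with 39 members above and 39 below 0, and 0.07 over all genes. Among the 1554 genes with a mean FPKM of at least 50 it was -0.02, with 727 above and 825 below 0. For the 64 members at that level it was -0.01. The fraction comparison in KO cells gave 3 that rose, Ndufc2, Ndufb9 and Uqcr10, and 1 that fell, Cox7a2l, again 5.13% of members where 16.2% of all genes passed (11.9% higher and 4.26% lower). Its median was 0.05 for the members and 0.05 for all genes, and 0.06 and 0.01 at a mean FPKM of at least 50. Without KO CD62Llo replicate 2 the members' median was 0.00, with 39 above and 39 below 0, and it ran up to 0.07 with other single libraries left out. Cox7a2l was called in both genotypes, 7 members were called in at least 1, and 71 in neither. With single libraries left out the count ran from 2 (without either HET CD62Lhi library or without HET CD62Llo replicate 2 or 3) to 8 (without KO CD62Llo replicate 2) in HET, where it was 7 without HET CD62Llo replicate 1. In KO it ran from 1 (without KO CD62Llo replicate 2) to 5, and was 2 without KO CD62Lhi replicate 1 or 2. Cox7a2l was called each time, and each of the 6 other calls was lost in some of these fits.

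Most members changed little. In HET cells 70 of 78 (89.7%) changed by less than 0.25 on the log2 scale, against 63.1% of all genes, and in KO cells 74 (94.9%), against 75.5%. The 95% interval of the change lay within 0.5 to either side of 0 for 70 members in HET and 74 in KO (all genes 62.1% and 74.4%). Members were also measured with less scatter than all genes together: the median SD of log2 values within groups was 0.0859, against 0.106. At a mean FPKM of at least 50 members and all genes had the same median SE of the change, 0.08 in HET and 0.07 in KO. Scaling mattered for direction, because the median log2 level of all tested genes was itself higher in CD62Llo, at 3.74 to 3.77 against 3.64 and 3.66 in HET. With libraries centred on that median the members' median became -0.10 in HET and -0.03 in KO. The called members were then 0 higher and 13 lower in HET and 0 higher and 7 lower in KO. The authors' deposited group values gave the 78 members median changes of -0.07 in HET and -0.02 in KO. No common direction of the members is therefore given here. Below, the deposited scaling means that of the FPKM per library.

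**Figure D2:**
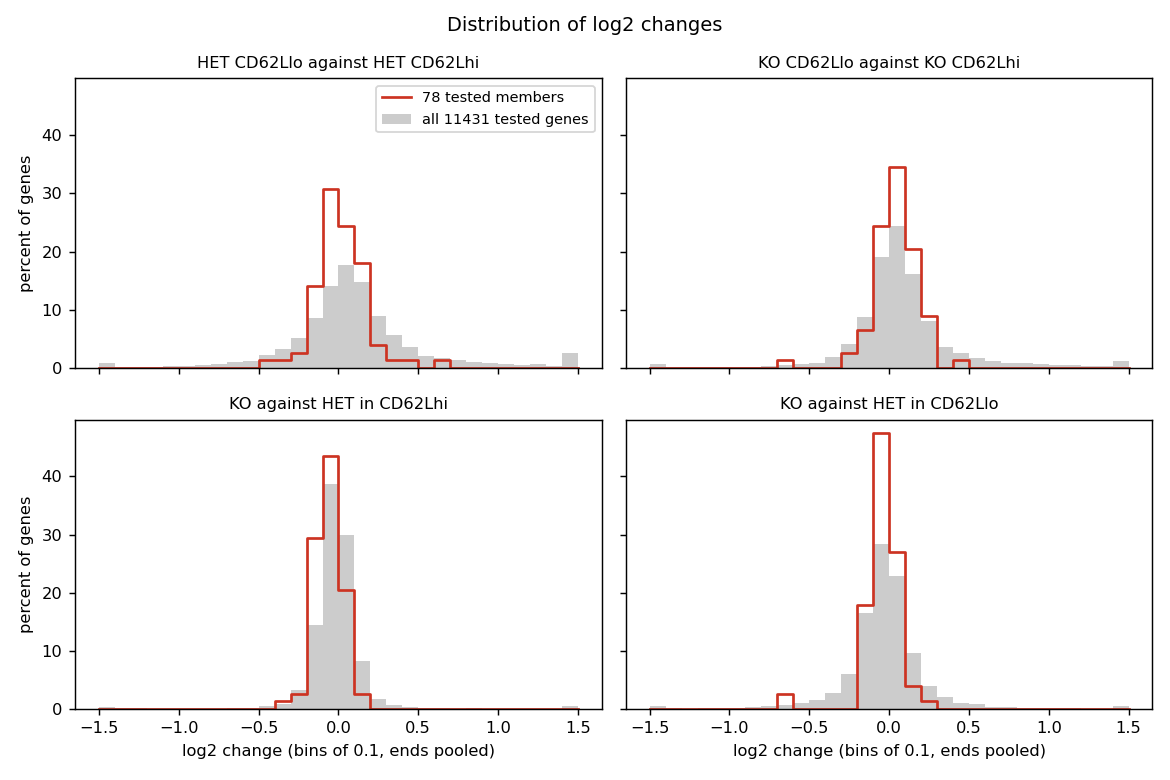
Share of genes, in percent, per bin of log2 change, for the 78 tested members (red line) and all 11431 tested genes (grey bars) in the 4 comparisons between groups. The members gather near 0 in both fraction comparisons, with 89.7% and 94.9% within 0.25 against 63.1% and 75.5% of all genes.

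Cox7a2l (mm10 chromosome 17, 83501916 to 83514333) encodes a protein, also called SCAF1, that joins complexes III and IV into supercomplexes. C57BL/6 mice are known to carry a shortened form of it whose role in that assembly has been debated. Its FPKM were 386 and 371 in HET CD62Lhi, 297, 275 and 262 in HET CD62Llo, 336, 367 and 350 among KO CD62Lhi libraries and 283, 294 and 294 among KO CD62Llo libraries. Every CD62Llo library of both genotypes lay below every CD62Lhi library. Group means were 379 ± 10 (SD, n = 2) and 278 ± 17.6 (n = 3) in HET and 351 ± 15.5 and 291 ± 6.37 (n = 3 each) in KO. The log2 change was -0.45 (SE 0.06, adjusted p = 7.8e-04) in HET and -0.27 (SE 0.06, adjusted p = 0.0107) in KO, by limma. The difference between these changes, 0.18 (95% interval -0.02 to 0.37), did not pass (limma interaction, adjusted p = 0.685). In the authors' deposited table of group values it read 502 and 341 in HET and 462 and 364 in KO.

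Its closest relatives were not called. Cox7a2, which sits at the equivalent place in complex IV alone, had FPKM of 80.4 and 77.6 in HET CD62Lhi and 81.6, 88.4 and 88.5 in HET CD62Llo. It had 81.0, 89.0 and 76.9 among KO CD62Lhi libraries and 75.9, 91.3 and 79.6 among KO CD62Llo libraries. The HET fractions did not overlap but the log2 change of 0.12 did not pass (adjusted p = 0.327, limma), and in KO it was 0.00 (adjusted p = 0.989). Cox7a1 had FPKM of 1 and 1.88, then 2.13, 3.02 and 2.89 in the HET fractions, and 0.689, 0.992 and 1.58, then 2.84, 0.574 and 0.885 in the KO fractions. The KO groups overlapped, and neither change passed (0.61 and 0.13, adjusted p = 0.232 and 0.829, limma).

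In complex I, 1 member rose and 1 fell between the HET fractions, and 2 rose between the KO fractions, of 35. Ndufa12 (chromosome 10, 94199008 to 94220948), an accessory subunit of the peripheral arm, had FPKM of 68.7 and 64.8 in HET CD62Lhi and 78.9, 81.8 and 77.7 in HET CD62Llo, which did not overlap (log2 0.25, SE 0.07, limma adjusted p = 0.0225). In KO it had 64.9, 66.2 and 71.9, then 72.8, 83.0 and 76.3, and the change of 0.19 did not pass (adjusted p = 0.0643, limma). The fractions of neither genotype overlapped. Ndufa6 (chromosome 15, 82350138 to 82354291), an accessory subunit that binds acyl carrier protein, ran the other way. Its FPKM were 207 and 205, then 183, 179 and 165 in HET (log2 -0.23, SE 0.06, adjusted p = 0.0256, limma), and 173, 189 and 181, then 151, 164 and 166 in KO (log2 -0.18, adjusted p = 0.0719). Again no CD62Llo library reached a CD62Lhi library of its genotype.

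Ndufb9 (chromosome 15, 58933809 to 58939489), another subunit that binds acyl carrier protein, in the membrane arm, had FPKM of 93.6, 101 and 92.2 among KO CD62Lhi libraries and 114, 118 and 108 among KO CD62Llo libraries (log2 0.24, SE 0.06, adjusted p = 0.0187, limma). In HET it had 100 and 110, then 113, 120 and 119, separate as well but not called (0.15, adjusted p = 0.106). The gene Gm49356 overlaps its exons on the same strand in the annotation, so their reads may be shared. Ndufc2 (chromosome 7, 97400002 to 97407800), a membrane arm subunit, had FPKM of 48.5, 45.2 and 52.0, then 57.7, 63.9 and 57.9 in KO (log2 0.30, SE 0.08, adjusted p = 0.043, limma). Its HET values of 45.9 and 52.7, then 58.1, 48.6 and 51.2 overlapped (0.09, adjusted p = 0.511). The core subunits Ndufs1, Ndufs3, Ndufs7, Ndufs8, Ndufv1 and Ndufv2 were not called in any comparison. Ndufv2, a subunit of the NADH-oxidising module, stood at 36.3 and 37.5, then 42.0, 48.9 and 45.6 FPKM in HET (0.29, adjusted p = 0.0641, limma).

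Of the complex I members Ndufs5 scattered most. Its FPKM were 54.2 and 50.5 in HET CD62Lhi, 31.8, 58.2 and 56.7 in HET CD62Llo, 52.9, 50.2 and 54.1 among KO CD62Lhi libraries and 33.4, 61.8 and 56.1 among KO CD62Llo libraries. The first library of each CD62Llo group was low and the other 9 lay between 50.2 and 61.8. Its fraction changes, -0.14 (SE 0.29) and -0.10 (SE 0.26), did not pass. Ndufa3, the complex I member with the highest FPKM, had 333 and 358, then 348, 303 and 315 in HET, and 336, 316 and 330, then 332, 388 and 341 in KO, and its groups overlapped.

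Complex II, which is wholly nuclear-encoded and also serves the tricarboxylic acid cycle, had no called member among 4. Sdha had FPKM of 77.3 and 81.8, then 90.1, 83.0 and 84.9 in HET, and 78.3, 83.0 and 80.3, then 85.2, 93.4 and 87.5 in KO. The CD62Llo libraries were above the CD62Lhi libraries of their genotype, but changes of 0.11 and 0.14 (SE 0.06 and 0.05) did not pass (adjusted p = 0.199 and 0.118, limma). Sdhd had changes of 0.16 and 0.15 and was not called either (adjusted p = 0.12 and 0.132, limma).

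In complex III, 1 of 8 members rose between the HET fractions and 1 between the KO fractions. Uqcrb (chromosome 13, 66900620 to 66905350), a small subunit near a ubiquinone-binding site, had FPKM of 106 and 112 in HET CD62Lhi and 123, 151 and 150 in HET CD62Llo, without overlap (log2 0.37, SE 0.11, adjusted p = 0.0288, limma). In KO it had 102, 114 and 123, then 120, 135 and 136, which overlapped (0.20, adjusted p = 0.199). Gm10767 overlaps it on the opposite strand, and the strand setting of the authors' quantification is not given in the sources used here. Uqcr10 (chromosome 11, 4701967 to 4704344), a small accessory subunit, had 150 and 157, then 181, 169 and 175 in HET, and 135, 150 and 147, then 165, 172 and 157 in KO. Both genotypes gave a change of 0.19 (SE 0.06), on either side of the threshold (adjusted p = 0.0536 in HET and 0.0492 in KO, limma). Uqcrfs1 had means of 48.2 ± 2.68 and 42.9 ± 1.27 in HET and 46.4 ± 4.29 and 39.5 ± 2.46 in KO, a change of -0.16 and -0.22 that did not pass (adjusted p = 0.175 and 0.0747). Uqcrh, the most abundant, had 462 and 451, then 439, 446 and 443 in HET, and 413, 436 and 453, then 366, 428 and 415 in KO.

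Complex V had no called member among 15 in any comparison with the deposited scaling. With median centring Atp5b, Atp5d, Atp5h and Atp5o were called lower in HET CD62Llo than in HET CD62Lhi, and Atp5d and Atp5h between the KO fractions. With the deposited scaling all 15 stayed within 0.25 of 0 on the log2 scale in each of the 4 comparisons between groups. Atp5k had FPKM of 459 and 515, then 521, 431 and 501 in HET, and 471, 416 and 468, then 469, 581 and 534 in KO. Atp5b ranged from 321 to 376 over the 11 libraries, and Atp5a1, the alpha subunit, from 229 to 247. The farthest from 0 downward was Atp5d, the delta subunit of the central stalk, with means of 167 ± 2.49 and 148 ± 11.7 in HET and 150 ± 2.62 and 133 ± 6.66 in KO. Its change was -0.17 in both genotypes (adjusted p = 0.0998 and 0.0954, limma), and its fractions did not overlap in either. Atp5s, named for the synthase but not one of its structural subunits, was low in level and near the threshold in both genotypes. Its FPKM were 2.48 and 1.82, then 2.87, 3.71 and 3.35 in HET, and 2.14, 2.00 and 2.17, then 3.36, 4 and 2.51 in KO (0.45 in each, adjusted p = 0.0518 and 0.0507, limma).

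**Figure D3:**
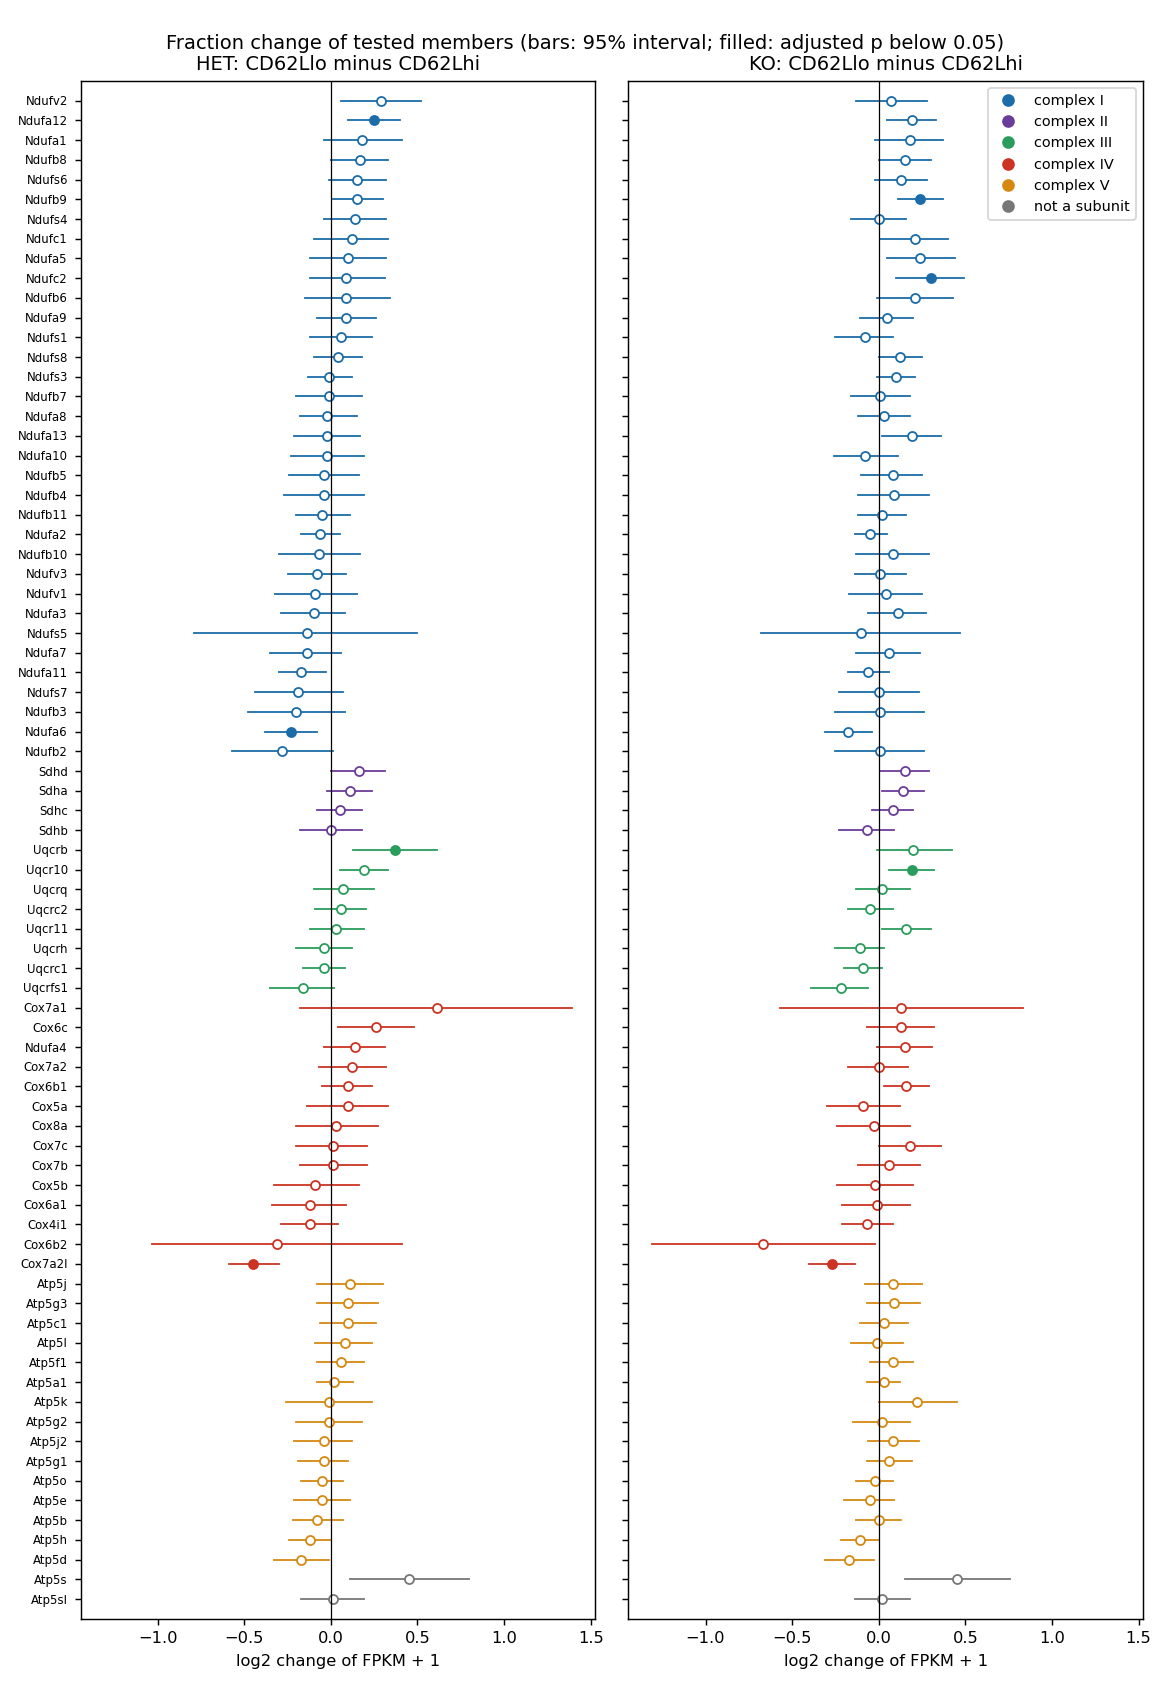
Log2 change from CD62Lhi to CD62Llo of 77 of the 78 tested members in HET (left) and KO (right), grouped by complex, with 95% intervals and filled points where the adjusted p is below 0.05. Cox7a2l is filled on the left and right, and the 15 complex V members lie between -0.17 and 0.22.

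Counted by overlap alone, 20 members were higher and 10 lower in every HET CD62Llo library than in every HET CD62Lhi library, which is 25.6% and 12.8% where all genes gave 36.1% and 17.9%. In KO it was 15 higher and 5 lower, 19.2% and 6.41% against 24.3% and 10.5%. Genes with a mean FPKM of at least 50 gave 26.1% higher and 29.5% lower in HET, and the 64 members at that level 21.9% and 12.5%. In KO those genes gave 16.5% and 17.9%, and those members 20.3% and 4.69%. The balance of the 78 members depended on the scaling. With quantile scaling it was 10 higher and 14 lower in HET and 17 and 6 in KO, and with median scaling 6 higher and 26 lower in HET and 6 and 16 in KO. The fraction changes of both genotypes come from separate libraries. Across the 78 members they had a Spearman rho of 0.65 and 66.7% had the same sign, and across all 11431 genes the rho was 0.77 and the share 79.8%. Genes of a library share its depth and composition, so these values are a description.

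The comparison of KO with HET asks whether loss of Ezh2 changes these genes within a fraction. In CD62Lhi cells no member was called, and no gene at all (0%), while 6 members and 328 genes had an unadjusted p below 0.05. In CD62Llo cells no member was called either, where 4.6% of all genes were (1.36% higher and 3.25% lower), and 3 members and 2160 genes had an unadjusted p below 0.05. Markers of the CD62Llo fraction differed in this comparison. Of 4 markers of CD62Llo cells (Cd44, Icos, Tigit and Klrg1) 3 were called lower in KO (list median -1.45), at 95.5 to 128 against 226 to 334. The part of this difference in the members' values was not tested. The interaction of genotype and fraction called no member, where 0.00875% of all genes, 1 gene, passed, and no member and 868 genes had an unadjusted p below 0.05. The 95% interval of the change lay within 0.5 to either side of 0 for 74 members (94.9%) in CD62Lhi and 75 (96.2%) in CD62Llo, and of the difference between the fraction changes for 69 (88.5%), where all genes gave 85.1%, 79.7% and 65.5%. The 2 KO comparisons share their libraries with the fraction comparisons above.

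Within CD62Lhi the members lay mostly a little lower in KO. Of the 78, 60 were below 0 with a median of -0.07, where 6666 of 11431 genes were below 0 with a median of -0.02. Among the 1554 genes with a mean FPKM of at least 50, 1122 were below 0 (median -0.05), and 52 of the 64 members at that level. Without HET CD62Lhi replicate 2 the members' median was -0.04. By library, the median log2 level of the members was 6.66 and 6.75 in HET CD62Lhi and 6.61 to 6.65 in KO CD62Lhi. The SD of such library medians within groups was 0.0669, about as large as the change of -0.07. Members of a library share its depth and composition, so the counts of members here are a description and not replicates. Of the 78, 26 were lower in all 3 KO libraries than in both HET libraries. That is 33.3% of members against 14.4% of all genes, and 2 members, Ndufs1 and Sdhc, were higher (2.56%, against 7.83%). At an FPKM of at least 50, 23.8% of genes were lower in this way, and 35.9% of members. With quantile or median scaling the members' count was 24 and 21, and the share of all genes 12% and 11.4%. The 26 included 13 of complex I, 6 of complex V, 5 of complex IV, 1 of complex II and 1 of complex III. Ndufa6, with 207 and 205 FPKM in HET against 173, 189 and 181 in KO, had a change of -0.19 (SE 0.06), and Uqcr11, a small complex III subunit, had 136 and 134 against 127, 113 and 114 (-0.19, SE 0.07). Both had an adjusted p of 1 (limma).

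Within CD62Llo the members' median was -0.03, the same as over all genes, and it was 0.01 with median scaling. Without KO CD62Llo replicate 2 it was -0.08, with 15 members above and 63 below 0, and without replicate 1 of that group it was 0.00, with 40 above and 38 below. No member was higher and 4 were lower in every KO than in every HET library (0% and 5.13%, against 6.55% and 13.7% of all genes): Uqcrh, Uqcrc2, Uqcrfs1 and Ndufa11. This balance turned with the scaling, to 4 higher and 1 lower with quantile scaling and 5 higher and 1 lower with median scaling. Uqcrh had 439, 446 and 443 in HET and 366, 428 and 415 in KO (-0.14, SE 0.06, adjusted p = 0.28, limma). With the deposited scaling all 8 complex III members had a change below 0 here, with a median of -0.10, none of them called. The farthest from 0 were the low Cox7a1 and Cox6b2, a testis form, at -0.70 and -0.67 (adjusted p = 0.267 and 0.247), whose FPKM in KO CD62Llo ran from 0.574 to 2.84 and from 0.222 to 1.56.

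**Figure D4:**
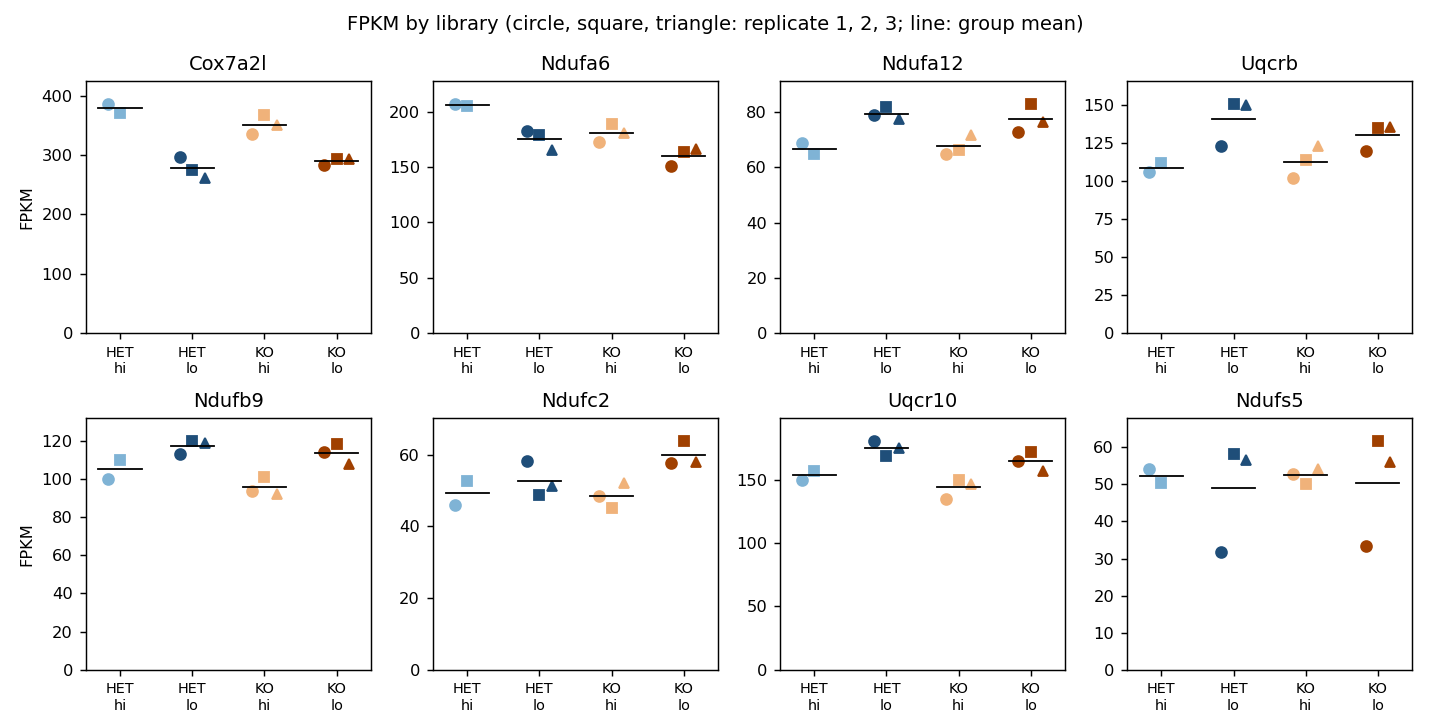
FPKM in each library of the 7 members called in a fraction comparison and of Ndufs5, by group, with axes from 0 (markers: replicate number; line: group mean). Every CD62Llo library of Cox7a2l (262 to 297) lies below every CD62Lhi library (336 to 386), and Ndufs5 is low in 2 libraries (31.8 and 33.4).

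Other genes of mitochondrial respiration were fitted with the deposited scaling only, and their calls stand against the 27.7% of all genes called between the HET fractions and 16.2% between the KO fractions. A list of 12 tested genes outside the name rule held respiratory chain genes together with others, such as Chchd10 and Atpif1, that are not its subunits. Of these 12, 3 rose and 1 fell between the HET fractions and 1 rose between the KO fractions (33.3% and 8.33% called). Chchd10, a protein of the intermembrane space, fell from a mean of 32.5 FPKM to 18.0 in HET (log2 -0.82, adjusted p = 0.00108, limma) and had means of 27.8 and 22.5 in KO (-0.29, adjusted p = 0.117). Ghitm, Usmg5 and Etfdh rose in HET by 0.39, 0.39 and 0.25. Atpif1, the inhibitor of ATP synthase hydrolysis, rose in KO from 49.8, 52.7 and 54.0 to 67.5, 91.6 and 77.1 (0.58, adjusted p = 0.00505, limma) and had 0.31 in HET (adjusted p = 0.0709).

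Of 46 assembly factors, 5 rose and 1 fell in HET, and 3 rose and 1 fell in KO, which is 13% and 8.7% called and below the share of all genes in both. Cox20, a chaperone of complex IV, rose from 72.1 to 101 FPKM in HET (0.48, adjusted p = 0.0183, limma) and had means of 79.3 and 79.7 in KO. Sdhaf1, which matures the complex II iron-sulfur subunit, rose in both genotypes by 0.29 and 0.23 (adjusted p = 0.00604 and 0.0187). Surf1, another complex IV factor, rose in KO by 0.34 (adjusted p = 0.0096). Tmem126b, a complex I factor, rose in HET by 0.35 and was the assembly factor lower in KO than in HET among CD62Llo cells (-0.39, adjusted p = 0.0312, limma).

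Of 27 regulators of mitochondrial biogenesis, 5 rose and 4 fell in HET and 2 rose in KO (33.3% and 7.41% called). Hif1a, the oxygen-regulated factor that favours glycolysis, rose from 22.1 and 23.9 to 54.6, 74.7 and 67.0 FPKM in HET (log2 1.46, SE 0.14, adjusted p = 9.0e-05, limma). In KO it rose from 21, 22.6 and 24.5 to 42.4, 54.1 and 42.9 (log2 1, SE 0.13, adjusted p = 8.2e-04). Myc, a growth factor-induced activator, fell from a mean of 71.0 to 47.6 in HET (-0.57, adjusted p = 0.00103), and in CD62Llo cells it was higher in KO than in HET, at 60.9 (0.35, adjusted p = 0.0342). The genes of the factors whose letters were sought in the promoters, Nrf1, Gabpa and Yy1, had means of 16.7 to 18.5, 12.9 to 14.0 and 31.9 to 33.7 FPKM in the 4 groups and were called in no comparison. Ppargc1a, the co-activator PGC-1alpha, stayed between 0.0304 and 0.0675 FPKM.

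Of 22 genes of the tricarboxylic acid cycle and pyruvate dehydrogenase, 2 rose (Idh3a by 0.40, Fh1 by 0.32) and 1 fell (Pdha1, -0.22) between the HET fractions, and none was called between the KO fractions (13.6% and 0%). In CD62Llo cells 1 of the 22 was called lower in KO than in HET (4.55%, against 4.6% of all genes). Among 19 genes of fatty acid oxidation 3 rose in HET and 2 in KO (15.8% and 10.5%). Decr1, an enzyme for unsaturated fatty acids, rose from 6.75 to 11.5 FPKM in HET and from 6.79 to 11.2 in KO (0.69 and 0.63, adjusted p = 0.00285 and 0.00457, limma). Etfb, which carries electrons from that pathway toward ubiquinone, rose by 0.37 and 0.40. Of 13 carriers and uncouplers, Slc25a13, an aspartate and glutamate exchanger, rose in both genotypes (0.79 and 0.50), and Ucp2 in HET (0.30), which is 15.4% and 7.69% called. Of 13 genes of ubiquinone synthesis, Adck3 and Coq3 rose in HET by 0.66 and 0.32 and none was called in KO (15.4% and 0%). In these 4 lists too the share called was below that of all genes in both genotypes.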

How the data were processed

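Per the submitters' processing notes, the authors' tools included Cufflinks 2.1.1, TopHat, CASAVA 1.8.2 and FastQC with the mm10 build, and the authors deposited FPKM per gene with an interval for each library (single-end reads of a poly(A) library). For settings, strandedness and the TopHat version nothing is given in the sources used here. A second deposited table holds 1 FPKM per group. Read counts were not used here, so the depth behind each value is unknown and no count test was run.

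FPKM of entries with the same symbol were summed, and log2(FPKM + 1) of the 11 libraries was fitted in R 4.3.3 with limma 3.58.1, 1 mean per group, variance shrunk toward a trend, and p-values adjusted by Benjamini-Hochberg (threshold 0.05) over the 11431 genes that reached FPKM 1 in 2 or more libraries. The pseudocount understates changes of low genes. Contrasts were fraction within genotype, genotype within fraction and the interaction. The fit was tested on simulated data. Overlaps with other genes came from GENCODE M21.

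Members and lists were chosen with earlier results of these data known. All members but 1 could be named, which is not reported here and is left out of the plots of single members. Values per library follow a rule: called members, the highest FPKM of each complex and isoform groups. Other lists give up to 3 called genes each per contrast. Atp5d, Atp5s, Ndufs5, Ndufv2, Sdhd, Uqcr11, Uqcrfs1 and the uncalled regulators were named with their values already seen. The promoter search was added with values known: the 3 motifs and the 4 promoters shown were chosen then, and the NRF1 letters were shortened to a core of 8 after the counts for a longer form had been seen, so the reported share is 1 of 2 forms tried. Of the alternatives, the interval midpoint was added after seeing the data. The main fit used no pairing of replicate numbers, and a replicate block was fitted only as an alternative. Deviations from group means correlated weakly between HET and KO CD62Llo libraries of the same number (r of 0.165, 0.153 and 0.148). Between the fractions r was 0.135 and 0.073 in HET, and 0.131, 0.068 and 0.178 in KO. For the other pairs of groups r was 0.075 or less. Whether equal numbers mark a shared origin is not stated.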

Additional observations from a re-analysis of the deposited data

How the results depend on the processing

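Between the HET fractions the 4 called members became 13 (0 higher, 13 lower) with median centring, 2 with only the groups compared and 7 with the replicate block. Between the KO fractions the 4 became 2 without a filter on low values and 7 (0 higher, 7 lower) with median centring. The block gave 3 there and changed no count for the other comparisons, which stayed at 0. Quantile scaling gave 6 and 4. Leaving out single libraries gave 2 to 8 in HET: 2 without either HET CD62Lhi library or without HET CD62Llo replicate 2 or 3, 7 without HET CD62Llo replicate 1, and 8 without KO CD62Llo replicate 2. In KO it gave 1 to 5: 2 without KO CD62Lhi replicate 1 or 2, and 1 without KO CD62Llo replicate 2. For KO against HET in CD62Llo it gave 0 to 1, with Ndufb8 lower without KO CD62Llo replicate 2. The cause of these shifts was not tested.

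Cox7a2l kept its call in all 21 alternatives in HET (adjusted p 1.3e-04 to 0.0127, limma) and in KO (0.00165 to 0.0484). The calls of Ndufa12 and Ndufa6 were each lost in 4 of 21, Ndufb9 in 5, Uqcrb in 6, Ndufc2 in 10 and Uqcr10 in 16. A refit from the authors' group table was not run, since it holds 1 value per group. The files give no counts, so depth sets no stated limit here.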
